A study of Homo sapiens with 4 samples.

Results

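TXNIP, the thioredoxin-interacting protein, belongs to the alpha-arrestins together with ARRDC1, ARRDC2, ARRDC3 and ARRDC4. Its gene is switched on by glucose through factors that include ChREBP, encoded by MLXIPL, and the dimer partner MLX. These 7 genes were picked by symbol from a table of 30863 genes, with their difference between AMF and DMSO already known, and all 7 were present. For that reason their differences between the groups are given below as a description with no test. The cells are HepG2, an established human liver cancer line labelled as hepatoblastoma and wild type. They received AMF (amentoflavone, a plant biflavonoid, in the series title) or the solvent DMSO for 48 h, with 2 libraries per group. The sources for the treatment conflict, 90 µM AMF in the protocol and 80 µM Tub B in the design text. Agent and dose are therefore not certain, and AMF means the libraries titled AMF.

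ChREBP and its relative MondoA (MLXIP) are basic helix-loop-helix factors that are held back when glucose is scarce. Once glucose-6-phosphate builds up, each pairs with MLX and binds carbohydrate response elements, which are tandem E-box-like sites a few bases apart. In liver, ChREBP targets include enzymes of glycolysis and fat synthesis, and TXNIP and ARRDC4 are among the genes that glucose raises most. TXNIP binds reduced thioredoxin and promotes removal of glucose transporters from the cell surface, so it acts against glucose uptake. The alpha-arrestins are adaptors whose PPxY motifs recruit ubiquitin ligases of the NEDD4 family to membrane proteins.

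Libraries held 24226586 to 26966210 reads counted in genes. Values are normalized counts, that is reads divided by a size factor per library, and a log2 change is AMF minus DMSO on the log2(normalized count + 1) scale with its standard error (SE). The share of reads from mitochondrially encoded genes was 9.53% and 9.61% in AMF, against 7.73% and 7.69% in DMSO. The 9 hepatocyte lineage markers had reads in all 4 libraries. Their summed level was 368072 to 387846 in AMF and 497778 to 515529 in DMSO, with both AMF libraries below both DMSO libraries for AFP, APOA1, APOB, TTR, SERPINA1 and TF. The transferrin gene TF had 22959 and 22234 in AMF and 47229 and 41209 in DMSO, and APOB had 135488 and 133706 in AMF and 208340 and 211320 in DMSO. The groups overlapped for albumin (122923 and 116050 in AMF, 125341 and 117297 in DMSO) and FGB. HNF4A, a master factor of the lineage, went the other way, with 13071 and 12569 in AMF and 7044 and 7053 in DMSO. Summed markers reached 23.7 to 32.5 in AMF and 195 to 211 in DMSO for fibroblasts. COL1A1 (5.57 and 8.24 in AMF, 116 and 86.2 in DMSO) and PDGFRB (26.0 and 13.4 in AMF, 94.0 and 107.8 in DMSO) carried that sum, while COL1A2 and COL3A1 were at 0 or about 1 in each library. For endothelium they reached 292 to 319 in AMF and 159 to 188 in DMSO, nearly all of it PECAM1. The leukocyte sum, 17464 to 18424 in AMF and 24605 to 25211 in DMSO, was nearly all LYZ. The low levels of CD14 (31.6 and 19.6 in AMF, 5.0 and 12.3 in DMSO) and CD68 (2.79 and 2.06 in AMF, 0 and 0 in DMSO) went the other way, and PTPRC was not analysed here. The part of these markers in the results below was not tested. In a bulk sample, fewer cells that express a gene and less RNA per cell cannot be told apart. The labels do not say that the libraries are separate cultures, so the spread between them may be technical.

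The genes of the glucose-sensing factors differed little between the groups. MLXIPL, encoding ChREBP, had 6405 and 6066 normalized counts in AMF replicates 1 and 2, against 7087 and 6817 in DMSO replicates 1 and 2. Both AMF libraries lay below both DMSO libraries, and the log2 change was -0.16, SE 0.0449. Counts per gene do not separate the long ChREBP protein from the shorter form made from another start. MLX, the partner that ChREBP and MondoA need to bind DNA, had 1534 and 1506 in AMF and 1697 and 1773 in DMSO, a log2 change of -0.19, SE 0.0575. The AMF values were again the lower ones, with ratios of AMF to DMSO between 0.849 and 0.904 over the 4 pairs of libraries. Exons of MLX share 770 bases with those of PSMC3IP on the other strand, a recombination factor that fell (-0.49, SE 0.121, adjusted p = 0.00607). The kit does not keep strand, so the reads in that stretch cannot be assigned to either gene.

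TXNIP had the largest log2 difference of the 7 genes, with ARRDC3 close to it in size and opposite in sign. TXNIP had 937 and 1007 normalized counts in AMF replicates 1 and 2, against 1726 and 2090.3 in DMSO replicates 1 and 2. The highest AMF library was at 0.584 of the lowest DMSO library, and the lowest AMF library at 0.448 of the highest DMSO library. The mean was 972 ± 49.9 in AMF and 1908 ± 257 in DMSO (SD, n = 2 each), a ratio of 0.509 and a log2 change of -0.97, SE 0.0813. The DMSO libraries themselves differed, with replicate 1 lower than replicate 2 by 0.28 on the log2 scale, while the AMF libraries differed by 0.10. Of 23828 genes tested, 1451 had a larger fall. Leaving out 1 library put the log2 change of TXNIP between -1.11 and -0.83.

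**Figure D1:**
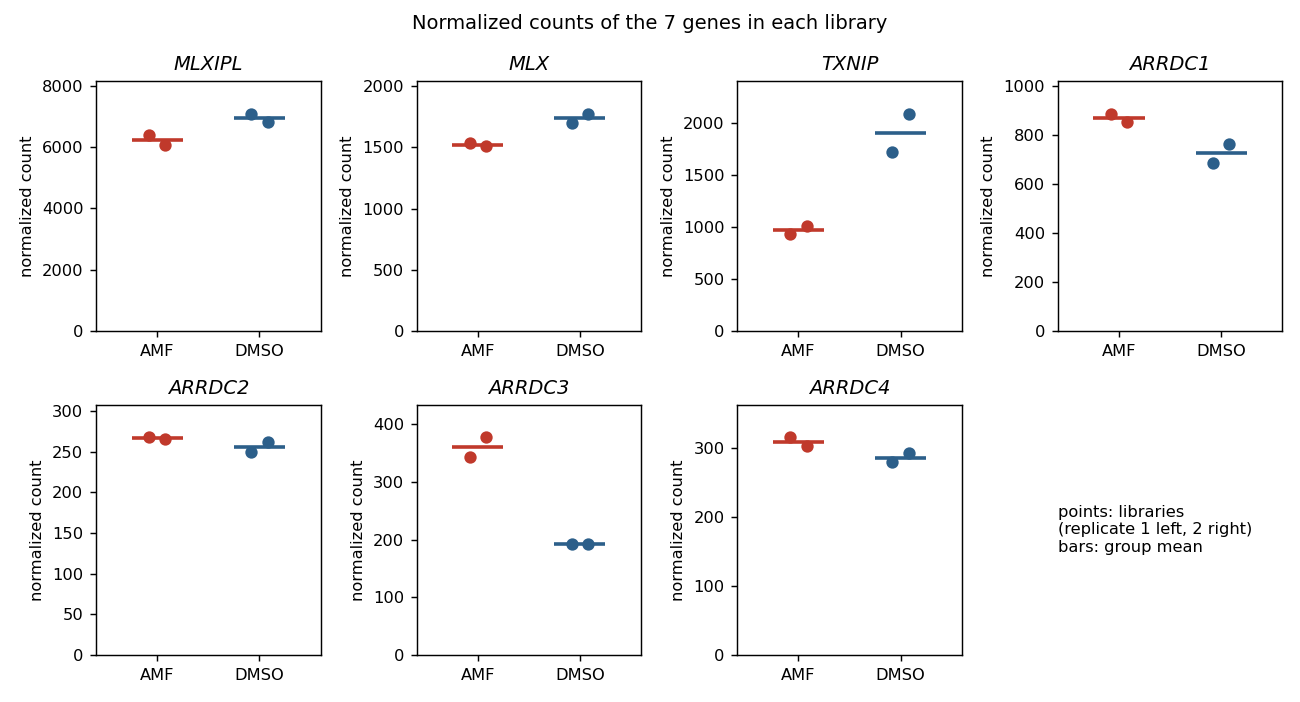
Normalized counts of the 7 genes, with 1 panel per gene and a vertical axis from 0, AMF left and DMSO right, each point 1 library and each bar the group mean. TXNIP lies near 972 in AMF and 1908 in DMSO, ARRDC3 near 360 in AMF and 193 in DMSO, and the other 5 genes differ by less.

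The promoter windows of TXNIP and ARRDC4 are shown because both genes are known glucose targets, and of the pair TXNIP alone was lower in AMF. They are the 250 bases before the start that RefSeq lists (GRCh38.p14, a later build than the hg19 named for the read alignment), read 5′ to 3′ on the strand of the gene. For TXNIP, with 2 listed starts, the one farther upstream is shown, at chr1:145996580-145996829 on the minus strand. ARRDC4 lies at chr15:97960453-97960702 on the plus strand. Capitals mark matches on either strand to the E-box CACGTG, to its variant CACGAG, and to the letters CCAAT, which the factor NF-Y binds.
TXNIP: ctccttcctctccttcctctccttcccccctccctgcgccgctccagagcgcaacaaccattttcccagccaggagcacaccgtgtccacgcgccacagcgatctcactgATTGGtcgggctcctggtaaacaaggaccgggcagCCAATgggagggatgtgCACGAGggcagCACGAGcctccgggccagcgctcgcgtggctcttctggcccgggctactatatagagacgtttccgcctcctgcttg
ARRDC4: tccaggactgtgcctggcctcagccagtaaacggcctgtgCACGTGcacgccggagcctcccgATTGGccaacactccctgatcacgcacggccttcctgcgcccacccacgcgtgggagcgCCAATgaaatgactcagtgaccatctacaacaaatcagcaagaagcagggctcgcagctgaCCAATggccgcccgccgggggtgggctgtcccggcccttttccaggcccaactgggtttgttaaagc
The TXNIP window holds 2 copies of CACGAG that are 5 bases apart, from 88 to 72 bases before the start. A tandem of CACGNG sites in the same direction with 5 bases between them, searched on both strands and overlapping the single CACGAG matches, is found in 0.0456% of 35116 such windows, 16 in number. Among the 10 windows listed for the 7 genes, this TXNIP window is the 1 that holds the tandem pattern. Other directions or spacings of the sites, and bases outside the windows, were not searched. A window without this pattern is therefore not shown to lack a carbohydrate response element. ARRDC4 has 1 CACGTG, from 210 to 205 bases before its start, and MLX has 1 from 50 to 45 bases before its start. A CACGTG occurs in 6.34% of all windows and a CACGAG in 5.58%. CCAAT, present in 32% of all windows, occurs 2 times in the TXNIP window and 3 times in that of ARRDC4. MLXIPL, ARRDC1, ARRDC2 and ARRDC3 have neither CACGTG nor CACGAG in their windows. These matches are letters in a window and say nothing of binding in these cells.

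The arrestin-domain genes did not follow TXNIP. ARRDC4, the closest relative of TXNIP in its known response to glucose, had 316 and 303 normalized counts in AMF and 280 and 293 in DMSO. The AMF libraries were slightly above the DMSO libraries, with a log2 change of 0.11 that was about as large as its SE of 0.104. ARRDC3, an adaptor known for sending the beta-2 adrenergic receptor and integrin beta-4 to degradation, had 344 and 377 in AMF, against 193 and 193 in DMSO. Each AMF library was 1.78 to 1.95 times each DMSO library, and the log2 change was 0.90, SE 0.111. Its exons share 145 bases with the antisense RNA ARRDC3-AS1, which had 28.8 and 20.6 in AMF and 18.99 and 22.6 in DMSO. These levels of ARRDC3-AS1 overlap between the groups.

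ARRDC1, which drives release of vesicles from the plasma membrane by recruiting the ESCRT protein TSG101, had 886 and 852 in AMF, against 684 and 764 in DMSO. The lowest AMF library was 1.12 times the highest DMSO library, and the log2 change was 0.27, SE 0.0769. Its neighbour ARRDC1-AS1, with 29 bases of exon shared on the other strand, had a log2 change of 0.27 (SE 0.0974, adjusted p = 0.048, close to the threshold of 0.05). On the same strand ARRDC1 shares 183 bases of exon with AL590627.2, which was not analysed here. ARRDC2, a less studied adaptor of the same family, had 267 and 266 in AMF and 249 and 262 in DMSO, a log2 change of 0.06, SE 0.109. The ARRDC2 groups lay close together, with the lowest AMF library 1.02 times the highest DMSO library. Exons of ARRDC2 share 442 bases with AC020904.3 on the other strand, which was not analysed here.

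**Figure D2:**
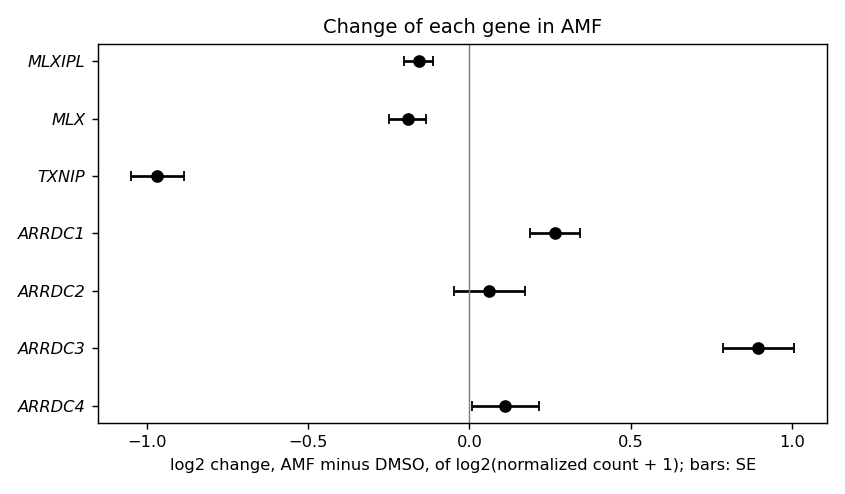
Log2 change, AMF minus DMSO, of each of the 7 genes on the horizontal axis with its SE as the bar. TXNIP lies at -0.97 and ARRDC3 at 0.90, while the other 5 genes lie between -0.19 and 0.27.

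All 7 genes passed the filter of a mean of at least 1 normalized count. In the fit over all genes, 2 of the 7 were past an adjusted p of 0.05 on the higher side (ARRDC1 and ARRDC3), where the share of all tested genes was 15.6%. On the lower side 3 were past it (TXNIP, MLXIPL and MLX), where the share of all tested genes was 16.2%. In all 7 the AMF and DMSO libraries did not overlap, as in 63.4% of all tested genes. For 4 members AMF was the higher side, against 33.8% of all tested genes, and for 3 the lower side, against 29.7%. Since the members were picked with this contrast known, nothing is read from these counts. The median log2 change was 0.06 over the members and 0.04 over all tested genes.

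Set per kilobase of annotated exon, the level of MLXIPL was the highest of the 7 in each library, at 1260 and 1330 in AMF and 1416 and 1472 in DMSO. In DMSO the order went on with TXNIP (476 and 577), MLX (399 and 416), ARRDC1 (179 and 200), ARRDC4 (68.7 and 71.9), ARRDC2 (53.7 and 56.5) and ARRDC3 (39.1 in each). In AMF, MLX (354 and 360) came before TXNIP (258 and 278), and ARRDC1 followed at 223 and 232. ARRDC4 (74.4 and 77.5) and ARRDC3 (69.6 and 76.4) overlapped in AMF, and ARRDC2 was last (57.3 and 57.7). TXNIP was thus 12.2 and 14.7 times ARRDC3 per kilobase in the DMSO libraries but 3.71 and 3.64 times in the AMF libraries, in replicates 1 and 2. Lengths are those of the merged exons of all annotated transcripts, 3.625 kb for TXNIP and 4.259 kb for MLX. The MLX length includes the 770 bases shared with PSMC3IP, and the annotation behind the counts is not named. The order of TXNIP and MLX in DMSO therefore depends on the lengths used.

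**Figure D3:**
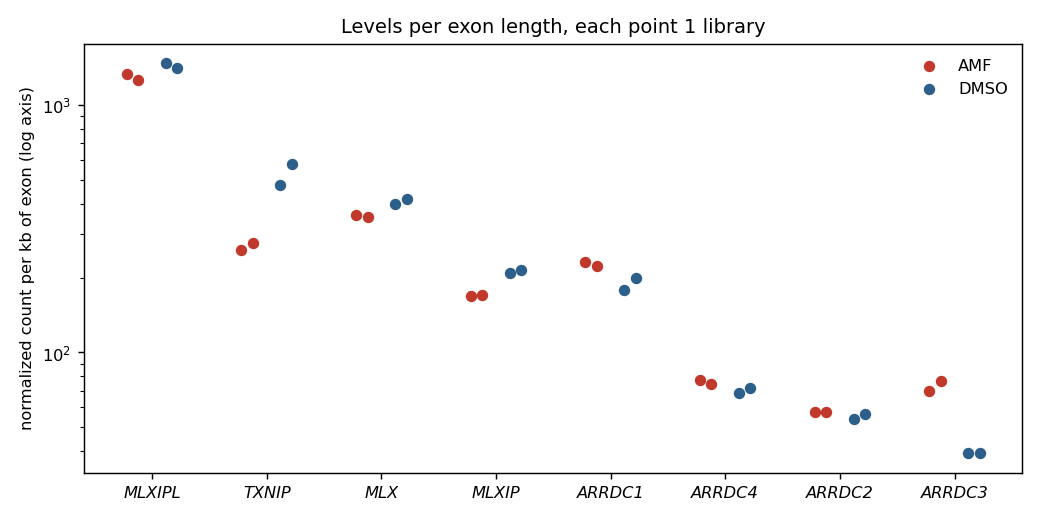
Normalized counts per kilobase of exon for the 7 genes and MLXIP, on a log axis, AMF left and DMSO right, each point 1 library. At these exon lengths TXNIP ranks above MLX in DMSO and below it in AMF, and ARRDC3 ranks last in DMSO. The order of TXNIP and MLX in DMSO depends on the lengths used.

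The 5 genes whose profile over the 4 libraries was most like that of TXNIP were CASC19, H1F0, RP11-874J12.4, MYO10 and LRRC37A4P. Likeness was the Euclidean distance of centred log2 values among the 11130 other genes that averaged 100 or more normalized counts, and the 5 distances ran from 0.0818 to 0.0905. H1F0, the linker histone H1.0, had 13473 and 13384 normalized counts in AMF and 23506 and 29386 in DMSO. Like TXNIP, it was higher in DMSO replicate 2 than in DMSO replicate 1. MYO10, an unconventional myosin of filopodia, had 1397 and 1411 in AMF and 2510.1 and 2886 in DMSO. With 4 libraries in 2 groups, many genes share such a profile.

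The factors that pair with MLX or are described as acting on TXNIP were lower or did not pass. The test for these and the following genes was limma-trend with Benjamini-Hochberg adjustment over all 23828 genes. The lists were chosen with earlier results of these data known. Their counts and adjusted p-values are therefore a description and no independent finding. Over all 23828 tested genes, 15.6% passed as higher and 16.2% as lower. In a fit of only the 15845 genes averaging 10 or more normalized counts, 3669 passed as higher and 4083 as lower. The counts for this and the following lists are to be read beside these shares. Of 4 other MLX partners, 2 fell and 0 rose. MLXIP, encoding MondoA, had 2349 and 2376 in AMF and 2927 and 2991 in DMSO (-0.32, SE 0.0499, adjusted p = 1.40e-04), and the repressor MXD4 fell by 0.26 (adjusted p = 0.00334). The repressors MNT (0.01) and MXD1 (0.12) did not pass. MLXIPL was 7.87 and 7.37 times MLXIP per kilobase in AMF replicates 1 and 2, and 6.99 and 6.58 times in DMSO replicates 1 and 2. Of 9 transcription factors described for TXNIP, 5 fell, 0 rose and 4 did not pass, with a median change of -0.19. MLXIP is on both lists and counts as a fall in each. The forkhead factors FOXO1 (-0.65, SE 0.0845, adjusted p = 3.06e-05) and FOXO3 (-0.47, SE 0.0777, adjusted p = 2.76e-04) fell. NFYB, a subunit of the CCAAT-box factor NF-Y, fell by 0.52 (SE 0.0948, adjusted p = 6.45e-04). Without AMF replicate 1 or 2, limma-trend called 0 genes in the whole table, with 6575 and 6387 at an unadjusted p under 0.05, and voom on the recovered reads called 1379 and 1315, none of either list. Without DMSO replicates 1 and 2, limma-trend called 3531 and 3442 genes, against 7578 with all libraries. It then called 1 and 1 of the MLX partners and 2 and 2 of the TXNIP factors as lower.

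Described ChREBP targets other than TXNIP and ARRDC4 were mostly higher in AMF. Of 22 such genes, on a list chosen with earlier results known, 16 rose, 3 fell and 3 did not pass. Their median log2 change was 0.67, against 0.04 over all tested genes. The median was the same with ME1 and RGS16, which had 0 reads in DMSO, at their bound from a floor of 3 reads over the group. Both genes stay above the median at that bound, so the median could not move. PKLR, the liver pyruvate kinase and a classical ChREBP target, had 891 and 900.4 normalized counts in AMF and 268 and 217 in DMSO (1.89, SE 0.103, adjusted p = 5.34e-09). GPD1, which makes glycerol-3-phosphate for triglycerides, had 992 and 970.4 in AMF and 260 and 291 in DMSO (1.83, SE 0.0872, adjusted p = 1.38e-09). TM6SF2, a protein of lipoprotein lipidation, rose by 1.62 (SE 0.286, adjusted p = 4.64e-04), or by 0.61 on the deposited log2 scale. Of its 2.188 kb of exon, 1021 bases are shared with AC138430.1, and PKLR shares 556 bases with HCN3 and KHK 729 with CGREF1, so reads there cannot be assigned to either gene. The carboxylase ACACB fell by 0.41 (SE 0.0882, adjusted p = 0.00208) and the fructose kinase KHK by 0.18 (SE 0.0605, adjusted p = 0.0377). The call of KHK was lost with a pseudocount of 0.1, with no filter and with library totals as scaling. The third gene that fell was the hormone FGF21, with 5 and 1 reads in AMF and 10 and 18 in DMSO. The change of FGF21 was -2.85 and -1.38 without AMF replicates 1 and 2. KLF10, a zinc finger gene that glucose induces, had 1282 and 1273 in AMF and 1116 and 1359 in DMSO and did not pass. These groups overlap for KLF10. Many of these genes are also targets of other lipid-regulating factors such as SREBP1, so the list is not particular to ChREBP. Of the 22 genes voom called 3 as higher and 0 as lower without AMF replicate 1, and the same numbers without AMF replicate 2. Without DMSO replicates 1 and 2, limma-trend called 12 and 10 as higher and 0 and 0 as lower.

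**Figure D4:**
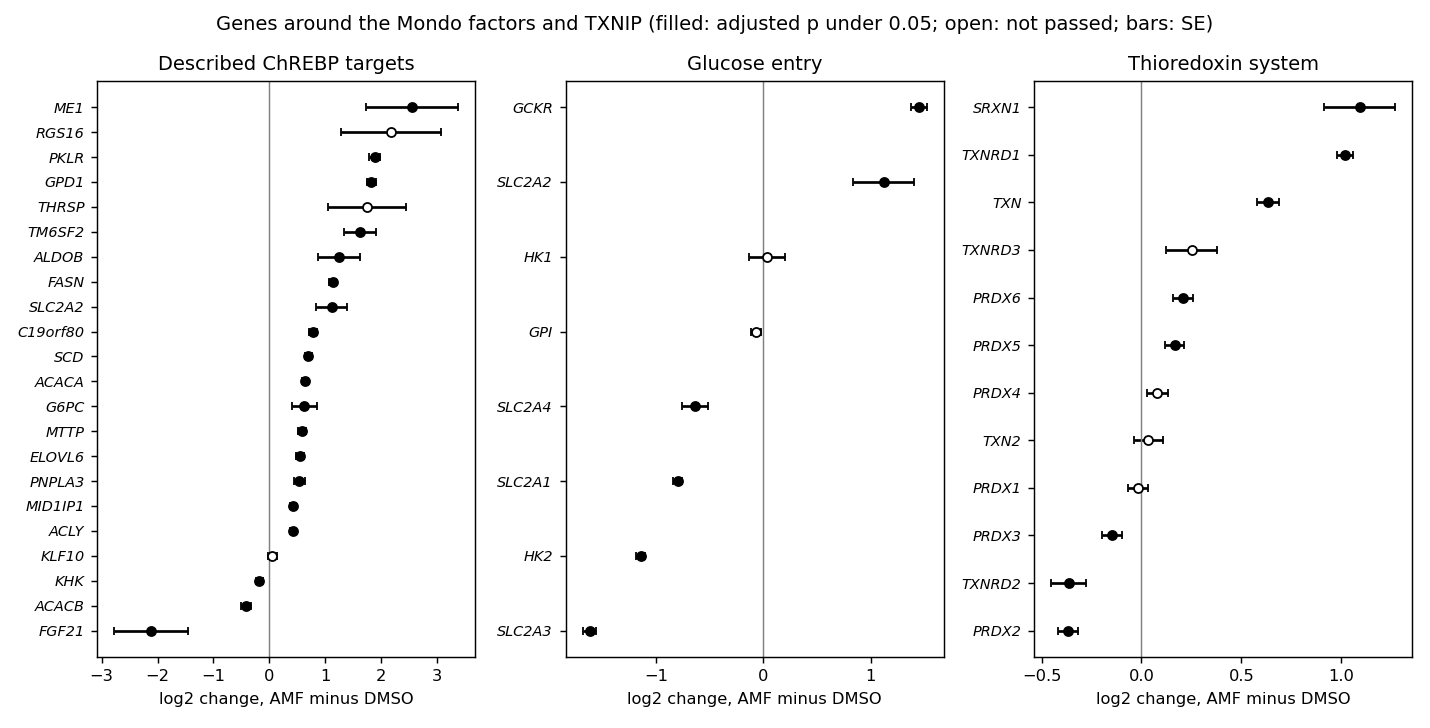
Log2 change, AMF minus DMSO, with SE, for 22 described ChREBP targets, 8 genes of glucose entry and 12 genes of the thioredoxin system, filled where the adjusted p is under 0.05. PKLR (1.89) and GPD1 (1.83) are among the high ChREBP targets, SLC2A3 (-1.62) is the lowest glucose entry gene, and TXNRD1 (1.02) lies near the top of the thioredoxin panel.

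Of 8 genes of glucose uptake and the first steps on glucose, 2 rose, 4 fell and 2 did not pass. The rises were those of GCKR and SLC2A2, which are typical of liver. The falls were those of the transporters SLC2A1, SLC2A3 and SLC2A4 and of HK2. GCKR, a regulatory protein of liver sugar metabolism, had 1243 and 1256 normalized counts in AMF and 450 and 465 in DMSO (1.45, SE 0.0717, adjusted p = 2.05e-09), and SLC2A2, the liver glucose transporter GLUT2, rose by 1.12 (SE 0.282, adjusted p = 0.00664), or by 0.40 on the deposited log2 scale. SLC2A2 also counts among the ChREBP targets above. The transporter SLC2A3 (GLUT3) had 3913 and 4118 in AMF and 13396 and 11303 in DMSO (-1.62, SE 0.0632, adjusted p = 2.10e-10). HK2, the hexokinase of growing cells, had 4640.03 and 4548 in AMF and 10145 and 10127 in DMSO (-1.14, SE 0.0411, adjusted p = 9.20e-11). SLC2A1, encoding GLUT1, the transporter whose surface level TXNIP is known to limit, fell by 0.80 (SE 0.0404, adjusted p = 2.41e-09). Voom called 1 of the 8 as higher and 3 as lower without AMF replicate 1 and the same numbers without AMF replicate 2. Limma-trend called 1 as higher without DMSO replicate 1 and 1 without DMSO replicate 2.

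In the thioredoxin system, the partner and its reductase rose. TXN, the thioredoxin that TXNIP binds, had 5960 and 6037 normalized counts in AMF and 4121 and 3628 in DMSO (0.63, SE 0.0558, adjusted p = 7.09e-07). TXNRD1, the cytosolic thioredoxin reductase, had 23569 and 24100.5 in AMF and 11417 and 12149 in DMSO (1.02, SE 0.0401, adjusted p = 2.28e-10). Per kilobase of exon, TXN was 20.2 and 19.02 times TXNIP in AMF replicates 1 and 2, and 7.58 and 5.51 times in DMSO replicates 1 and 2. Of 12 genes on the list, 5 rose, 3 fell and 4 did not pass. SRXN1, the sulfiredoxin that repairs peroxiredoxins, rose by 1.09 (SE 0.177, adjusted p = 2.27e-04), or by 0.59 on the deposited log2 scale. Of the 2.698 kb of SRXN1 exon, 2292 bases are shared with AL121758.1, so reads in that stretch cannot be assigned to SRXN1 alone. The peroxiredoxins PRDX2 (-0.37, SE 0.0491, adjusted p = 3.90e-05) and PRDX3 (-0.15, SE 0.0514, adjusted p = 0.0418) and the mitochondrial reductase TXNRD2 (-0.37, SE 0.0863, adjusted p = 0.00432) fell. The call of PRDX3 was lost under the same settings as that of KHK. Without AMF replicates 1 and 2, voom called 2 and 1 genes as higher and 0 and 0 as lower. Without DMSO replicates 1 and 2, limma-trend called 3 and 3 as higher and 1 and 2 as lower.

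Of 7 genes of the NLRP3 inflammasome, to which TXNIP is known to bind, 6 were tested. NLRP3 itself had no read in 3 libraries and 2.05 normalized counts in DMSO replicate 2. IL18 rose by 0.92 (SE 0.259, adjusted p = 0.0129), or by 0.38 on the deposited log2 scale. NEK7, a kinase that binds and activates NLRP3 (-0.75, SE 0.086, adjusted p = 9.52e-06), and the pore-forming GSDMD (-0.53, SE 0.0632, adjusted p = 1.42e-05) fell. The other 3 did not pass. Without AMF replicates 1 and 2, voom called 0 genes of this list as higher and 2 and 1 as lower. Limma-trend did not call IL18 without either DMSO library.

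Among ligases and other arrestins, the changes that passed lay between -0.45 and 0.35. Of 9 NEDD4-family ligases, 1 rose, 4 fell and 4 did not pass, with a median of -0.0035. NEDD4L had 5314 and 5044 normalized counts in AMF and 4067 and 4083 in DMSO (0.35, SE 0.0461, adjusted p = 3.96e-05). NEDD4 had 783 and 807 in AMF and 990 and 1048 in DMSO (-0.36, SE 0.0693, adjusted p = 9.99e-04). SMURF1 (-0.28) and WWP2 (-0.24) also fell. ITCH, the ligase known to act on TXNIP itself, had 4062 and 4119 in AMF and 3985 and 4220 in DMSO, so its groups overlap, and its log2 change was -0.0035, SE 0.0477. Of 8 other genes of the arrestin fold, ARRB2 rose (0.34, SE 0.0543, adjusted p = 1.94e-04). ARRB1 (-0.45, SE 0.0752, adjusted p = 3.09e-04) and the retriever subunit VPS26C, listed as DSCR3 (-0.32, SE 0.0625, adjusted p = 0.00119), fell, and 5 did not pass. ARRDC5, the remaining alpha-arrestin, had at most 6.16 normalized counts in any library. Of 9 ESCRT genes, MVB12A rose (0.19, SE 0.0665, adjusted p = 0.0457), the ATPase VPS4A fell (-0.37, SE 0.0617, adjusted p = 2.97e-04) and 7 did not pass, among them TSG101 (-0.10). The call of MVB12A was lost with a pseudocount of 0.1 or no filter. Of 5.67 kb of VPS4A exon, 2436 bases are shared, summed over COG8 and AC026464.4. Of 4.053 kb of MVB12A exon, 1117 bases are shared, summed over its overlapping neighbours. Reads in those stretches cannot be assigned to VPS4A or MVB12A alone. Without an AMF replicate voom called 0 of the arrestin fold and ESCRT genes and at most 1 ligase. Without DMSO replicates 1 and 2, limma-trend called 1 and 0 ligases and 0 and 1 arrestin fold genes as lower, and did not call MVB12A.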

How the data were processed

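Per the labels' protocols, HepG2 RNA was poly(A)-selected and made into libraries without strand information. Per the submitters' processing notes, the authors used STAR 2.7.0, featureCounts and hg19, and no label names their annotation or transformation. The deposited values are on a log2 scale with a floor of 6.01 in each library. Read from the values, they look like variance-stabilized counts over size factors. Inverted, 100% of them were whole reads within 0.01. No column belonged to other samples (0).

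The design foresaw normalized counts or a log2 form of them. The 23828 genes that averaged 1 or more normalized counts were tested with limma 3.58.1 (limma-trend, R 4.3.3) on log2(normalized count + 1), group as the single term, threshold 0.05. This scale understates changes of low genes. Voom used the recovered reads. The script was checked on simulated counts. For the fit these had the same spread setting for every gene, so the check gives no rate of false calls for these data. Exon lengths and overlaps came from GENCODE release 29 and promoter windows from RefSeq, both on GRCh38. Of 33 list genes named by rule (the 3 largest rises and falls past the threshold per list with a mean of at least 10, plus MLXIP, TXN and TXNRD1), 16 share exon bases with another gene. KLF10, FGF21, MNT, MXD1, ITCH and TSG101 and the antisense or overlapping neighbours were named after their values were seen. SLC2A4, ME1, RGS16, NLRP3 and ARRDC5 were also named outside the rule. Of the planned lists, 2 genes of glucose entry are not reported here. The members and lists were chosen with earlier results of these data known. Alternatives were another pseudocount, filter, scale, scaling and test, each library left out, and the replicate number as a term. Voom without each library was added after seeing the data. Figures were drawn with matplotlib 3.10.9.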

Additional observations from a re-analysis of the deposited data

How the results depend on the processing

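All 7 members kept the sign of their change under every alternative run. Because AMF and DMSO libraries did not overlap in any member, leaving out 1 library or changing pseudocount or scale could not reverse a sign. The other filters and the replicate block leave the change itself as it was. The kept signs are therefore largely fixed by the values and are no support for the changes. Between alternatives that keep all libraries, ARRDC3 moved by most, to 0.64 with the deposited log2 values, a scale that compresses low genes by construction, as it did for TM6SF2, SLC2A2, SRXN1 and IL18. Leaving out 1 library, with limma-trend or voom, gave from 0 to 3043 genes higher and from 0 to 3733 lower in the whole table. Limma-trend called 0 without either AMF library and at most 1753 higher and 1780 lower without a DMSO library, and voom 667 and 636 higher and 712 and 679 lower without AMF replicates 1 and 2. The fit without an AMF library has prior degrees of freedom of 0.995 and 1.003, against 11.9 with all libraries, so its 0 calls say little of single genes. Over the same settings the calls ran from 0 to 15 higher and 0 to 2 lower for ChREBP targets (limma-trend at most 12 higher, voom 3 and 3 without AMF replicates 1 and 2), 0 to 2 higher and 0 to 5 lower for glucose entry, and 0 to 5 higher and 0 to 4 lower for the thioredoxin system. They ran from 0 to 6 lower for the TXNIP factors, 0 to 2 lower for MLX partners, 0 to 1 higher and 0 to 4 lower for ligases, 0 to 1 higher and 0 to 2 lower for the arrestin fold and for the inflammasome, and 0 to 1 either way for ESCRT. ChREBP targets called lower numbered 1 with a pseudocount of 0.1, with no filter or at an adjusted p of 0.01. Inflammasome genes called higher numbered 2 with the replicate block or the deposited values and 0 at 0.01. ESCRT genes called higher numbered 0 with a pseudocount of 0.1, no filter or 0.01, and 2 with a mean of at least 10, voom or library totals. With the replicate number as a block, 4049 genes were higher and 4108 lower, against 3718 and 3860 without it. The block fit and voom without either DMSO library had infinite prior degrees of freedom. No gene kept its own variance in those fits, and their counts rest on that. The deviations of same-numbered libraries had a correlation of 0.02 over 11137 genes, so the numbers are not taken to pair the libraries. With 2 libraries per group, small differences such as those of ARRDC2 and ARRDC4 are not resolved.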
